A study of Mus musculus with 18 samples.

Results

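Glycerol and glycerol-3-phosphate metabolism was examined in 3 mouse adipose tissues through 8 genes, chosen by name from 52093 gene symbols in the files. They are the glycerol-3-phosphate dehydrogenases Gpd1, Gpd1l and Gpd2, the cytosolic PEP carboxykinase Pck1, glycerol kinase (listed under its older symbol Gyk), and the aquaglyceroporins Aqp3, Aqp7 and Aqp9. RNA-seq libraries came from male wild-type C57BL/6 mice on a high-fat diet for 12 weeks, with 6 libraries each of adipocytes from inguinal white fat (iWAT), adipocytes from epididymal white fat (eWAT) and brown fat (BAT). A treatment label names regular chow, against the sample titles and the stated design, and the samples were taken as high-fat-fed. White adipocytes were released with collagenase and collected by flotation, whereas BAT was frozen whole, although a cell-type label calls it adipocytes. The strain label gives C57BL/6, the extraction label C57BL/6J and the study's supplement C57BL/6NTac. The labels give no age, and the study's supplement gives a single age for the sequenced mice.

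Glycerol-3-phosphate is the backbone onto which fatty acids are esterified to form triglyceride. Adipocytes make it from glucose, by reducing the glycolytic intermediate dihydroxyacetone phosphate, or from pyruvate and its precursors by glyceroneogenesis, in which Pck1 catalyses a key step. Glycerol kinase can also phosphorylate glycerol directly, a reaction known to be weak in white fat and stronger in brown fat. Glycerol set free by lipolysis leaves the adipocyte through aquaglyceroporins, and Gpd1 with Gpd2 forms a shuttle that passes electrons from cytosolic NADH to the respiratory chain.

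The genes fell into different tissue patterns. Gpd1, Gpd2, Pck1 and Gyk were highest in BAT, Aqp7 was lowest in eWAT, and Aqp9 was a low-level transcript of the white adipocyte samples. In iWAT against eWAT, 4 of the 7 genes with enough reads passed the test (Gpd1, Gpd2, Pck1 and Aqp7, all higher in iWAT when scaled over all genes, though not when set against adipocyte markers except for Pck1), where 68.6% of all genes passed, 34.1% higher in iWAT and 34.5% higher in eWAT. Against BAT, 6 of 7 passed for iWAT, where 75.3% of all genes passed (38.1% higher in iWAT, 37.2% higher in BAT). For eWAT against BAT, 6 of 7 passed, where 82.5% of all genes passed (41.1% higher in eWAT, 41.4% higher in BAT). Both counts against BAT include Aqp9, which entered the test only through its white libraries (1 to 7 reads per BAT library). Shares this close to the background are not a result about the 8 genes as a set, and the sizes and directions below are what the data give. The 3 comparisons share libraries and are not independent of each other.

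The deposited read counts add up to 24655056 to 42518483 per library. The 10 most abundant rows took 43.6% to 54.3% of the reads in BAT and 9.94% to 20.5% in the white adipocytes. Fold changes below therefore come from counts scaled by TMM, which sets the bulk of genes equal between tissues. Without that scaling the median gene shifts by 0.87 (iWAT over BAT) and 0.89 (eWAT over BAT) on the log2 scale. The genes called higher in white adipocytes then numbered 13701 of 16755 for iWAT and 12962 of 17028 for eWAT, against 7529 of 14865 and 8243 of 16561 with scaling. Levels are in RPKM as deposited (reads per kilobase, scaled to the library total), so BAT levels look low beside the fold changes. The brown fat gene Ucp1 was at 1466 to 2136 RPKM in BAT and at most 2.98 RPKM in white adipocytes. Summed over 8 adipocyte markers, levels were 12014 to 16868 RPKM in iWAT, 2643 to 8230 RPKM in eWAT and 5639 to 6882 RPKM in BAT. Most of each sum was Fabp4, with means of 10486 RPKM in iWAT, 4050 RPKM in eWAT and 5087.5 RPKM in BAT. Summed over 8 macrophage markers, levels were 186 to 343 RPKM in iWAT, 942 to 1422 RPKM in eWAT and 6.06 to 11.9 RPKM in BAT, with none of the 8 at 0 in every library of a tissue. BAT libraries ran in lanes 3 and 4 and white adipocyte libraries in lanes 1 and 2, so lane, whole tissue and tissue type cannot be told apart in comparisons with BAT.

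Gpd1 (chromosome 15, 99547946 to 99555556, plus strand, mm9) encodes the cytosolic NAD-dependent dehydrogenase that reduces dihydroxyacetone phosphate. Its row spans 8 exons of a protein-coding gene. In iWAT its levels were 246 to 413 RPKM (median 333), in eWAT 58.8 to 194 RPKM (median 149) and in BAT 1447 to 1951 RPKM (median 1629.7). The tissues did not overlap, and in BAT the gene ranked 21 among all symbols by mean level, against 89 in iWAT and 343 in eWAT. In eWAT, replicates 3 and 1 were lowest, at 58.8 and 93.5 RPKM, and replicates 4 and 2 highest. Gpd1 was 2.45-fold higher in iWAT than in eWAT (log2 1.29 ± 0.26 SE, edgeR adjusted p = 0.000679). It was 7.55-fold higher in BAT than in iWAT (log2 -2.92 ± 0.16 for iWAT over BAT, edgeR adjusted p = 1.44e-10) and 18.2-fold higher in BAT than in eWAT (log2 -4.19 ± 0.27, edgeR adjusted p = 1.06e-09). Because fewer cells of a type and less RNA per cell cannot be told apart in bulk samples, all such differences are per unit of RNA. Rows Lass5 and ENSMUSG00000089671 overlap Gpd1, with read totals of 8.92% to 18.5% and 12.0% to 12.6% of those of Gpd1. How reads were shared between overlapping rows is not given in the sources used here, so the Gpd1 values are uncertain to that extent.

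Gpd1l (chromosome 9, 114808457 to 114843105, minus strand), a protein-coding paralog of Gpd1 with 10 exons, behaved differently. Its levels were 7.45 to 8.71 RPKM in iWAT, 7.76 to 8.29 RPKM in eWAT and 4.40 to 6.35 RPKM in BAT. The RPKM of BAT lay below both white tissues without overlap, yet after TMM scaling the means were 7.08 in iWAT, 7.002 in eWAT and 7.17 in BAT. The fitted log2 difference was 0.03 for iWAT over eWAT (95% CI -0.08 to 0.14), 0.001 for iWAT over BAT (95% CI -0.18 to 0.18) and -0.001 for eWAT over BAT (95% CI -0.18 to 0.18). None passed the test (edgeR adjusted p 0.631, 0.989 and 0.995), and these intervals leave room for differences up to the bounds given. Without scaling, Gpd1l was higher in both white tissues than in BAT, by 0.86 (iWAT) and 0.91 (eWAT) on the log2 scale (edgeR adjusted p = 7.29e-07 and 2.41e-07), sizes near the shift of the median gene.

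Gpd2 (chromosome 2, 57090046 to 57223130, plus strand), the protein-coding gene for the FAD-linked dehydrogenase of the inner mitochondrial membrane, had the widest span between tissues among the 8. Its levels were 2.67 to 3.21 RPKM in iWAT (median 2.99), 1.97 to 2.44 RPKM in eWAT (median 2.36) and 87.0 to 115 RPKM in BAT (median 102). All BAT libraries lay far above every white library, and each iWAT library lay above each eWAT library. Gpd2 was 52.6-fold higher in BAT than in iWAT (log2 -5.72 ± 0.12 for iWAT over BAT, edgeR adjusted p = 2.17e-14). It was 67.4-fold higher in BAT than in eWAT (log2 -6.08 ± 0.13, edgeR adjusted p = 3.43e-14). Between white depots the difference was small, 1.30-fold higher in iWAT (log2 0.38 ± 0.07, edgeR adjusted p = 0.000504). Skeletal muscle markers, 6 in all, summed to 1.70 to 128 RPKM in BAT, lowest in replicate 2 and highest in replicate 5. Their part in the BAT levels of Gpd2 was not tested.

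**Figure D1:**
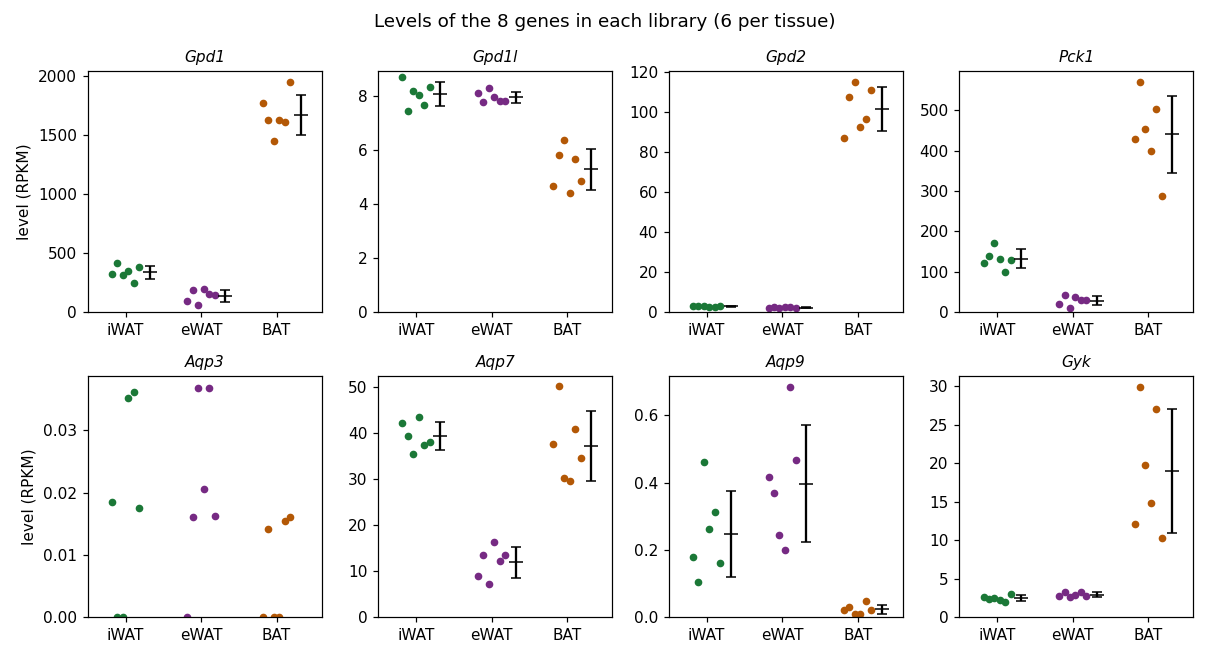
Level in RPKM (linear axis from 0) of each of the 8 genes in each library, as points by tissue with the mean ± SD beside them (n = 6; no mean is drawn for Aqp3). Gpd1, Gpd2, Pck1 and Gyk are highest in BAT, Aqp7 is lowest in eWAT, and Aqp3 is at 0 to 2 reads in every library.

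Pck1 (chromosome 2, 172978549 to 172984774, plus strand, 7 exons) encodes the enzyme that turns oxaloacetate into phosphoenolpyruvate. Its levels were 98.6 to 170.3 RPKM in iWAT (median 130.4), 11.1 to 42.9 RPKM in eWAT (median 29.9) and 287 to 570.1 RPKM in BAT (median 441). The tissues did not overlap. The lowest eWAT values were again those of replicates 3 and 1, at 11.1 and 20.9 RPKM, and within BAT the highest were replicates 2 and 17 and the lowest replicate 18. Pck1 was 4.62-fold higher in iWAT than in eWAT (log2 2.21 ± 0.27, edgeR adjusted p = 1.37e-05), the largest fold of the 7 tested genes between white depots. It was 5.06-fold higher in BAT than in iWAT (log2 -2.34 ± 0.17 for iWAT over BAT, edgeR adjusted p = 4.38e-09) and 23.1-fold higher in BAT than in eWAT (log2 -4.53 ± 0.29, edgeR adjusted p = 1.15e-09).

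Gyk (chromosome X, 82947276 to 83022158, minus strand, 22 exons) was low in white adipocytes, at 2.04 to 3.09 RPKM in iWAT (median 2.47) and 2.65 to 3.36 RPKM in eWAT (median 2.87). In BAT it ranged from 10.2 to 29.9 RPKM (median 17.3). Every BAT library exceeded every white one, and BAT libraries differed among themselves by 2.92-fold, more than for Gpd1 (1.35-fold) or Gpd2 (1.32-fold). The order of BAT libraries had replicates 2 and 17 highest and replicate 18 lowest, as for Pck1. Gyk was 11.5-fold higher in BAT than in iWAT (log2 -3.52 ± 0.24 for iWAT over BAT, edgeR adjusted p = 2.18e-09) and 9.55-fold higher in BAT than in eWAT (log2 -3.26 ± 0.23, edgeR adjusted p = 2.99e-09). Between white depots the difference missed the threshold (log2 -0.24, 95% CI -0.47 to -0.005, edgeR adjusted p = 0.0647). The row E130114A11Rik lies inside Gyk on the same strand and had 461 reads in the BAT library where it was highest. Summed over the BAT libraries, its reads came to 4.15% of those of Gyk, so a small part of these reads cannot be assigned with certainty.

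The promoters of Pck1, Gyk and Aqp7 are shown as the sequence just before each annotated gene. Pck1 and Gyk feed glycerol-3-phosphate from pyruvate and from glycerol and were both highest in BAT, while Aqp7 was the most abundant of the 3 aquaglyceroporins in every tissue. Sequences come from RefSeq promoter windows (300 bases, built on GRCm38.p6) that matched NCBIM37 (mm9) exactly and once, and they end where the annotated gene begins. Capitals mark TGACGT (the core of the cyclic AMP response element) or AGGTCA (the element bound by many nuclear receptors) on either strand, and TATAAA, which none of the 3 holds.
Pck1, chr2:172978324-172978548, plus strand: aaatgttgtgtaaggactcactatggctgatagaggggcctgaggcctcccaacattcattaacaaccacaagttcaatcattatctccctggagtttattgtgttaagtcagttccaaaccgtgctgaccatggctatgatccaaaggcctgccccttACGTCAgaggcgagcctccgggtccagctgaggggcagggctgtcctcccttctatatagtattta
Gyk, chrX:83022159-83022408, minus strand: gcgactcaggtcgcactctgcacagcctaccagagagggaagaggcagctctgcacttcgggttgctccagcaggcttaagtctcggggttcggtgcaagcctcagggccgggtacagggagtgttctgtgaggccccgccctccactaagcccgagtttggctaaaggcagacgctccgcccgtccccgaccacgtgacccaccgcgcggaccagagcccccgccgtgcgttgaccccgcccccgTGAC
Aqp7, chr4:40995173-40995419, minus strand: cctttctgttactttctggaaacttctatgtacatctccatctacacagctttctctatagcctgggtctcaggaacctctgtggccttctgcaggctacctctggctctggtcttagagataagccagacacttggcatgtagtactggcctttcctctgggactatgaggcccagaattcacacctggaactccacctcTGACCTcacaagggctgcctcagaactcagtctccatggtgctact

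Of the 8 genes, 7 matched the RefSeq table, in 10 windows. TGACGT was found in the windows of Pck1 and Gyk and in 7.51% of all 32851 windows of this length. In Pck1 it stood at -91 to -86 relative to the RefSeq start, on the minus strand of the gene. In Gyk it stood at -4 to 2, across the start, so the printed run ends with its first letters. AGGTCA was found in both Aqp7 windows, which overlap each other, and in 16.3% of all windows. The Gyk window had 65.7% G and C and 23 CG dinucleotides, Pck1 52.0% and 6, and Aqp7 49.7% and 0, against medians of 52.7% and 7 over all windows. These matches describe letters only, and no binding was measured.

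Aqp7 (chromosome 4, 40980107 to 40995172, minus strand, 11 exons) encodes the aquaglyceroporin through which adipocytes release glycerol. Its levels were 35.5 to 43.5 RPKM in iWAT (median 38.7), 7.27 to 16.4 RPKM in eWAT (median 12.8) and 29.7 to 50.3 RPKM in BAT (median 36.1). The eWAT libraries lay below all others, again with replicates 3 and 1 lowest, whereas the RPKM of iWAT and BAT overlapped. Aqp7 was 3.29-fold higher in iWAT than in eWAT (log2 1.72 ± 0.17, edgeR adjusted p = 2e-06) and 4.64-fold higher in BAT than in eWAT (log2 -2.21 ± 0.17 for eWAT over BAT, edgeR adjusted p = 9.03e-09). The difference between iWAT and BAT depended on the scaling. It was 1.43-fold higher in BAT after TMM scaling (log2 -0.52 ± 0.09 for iWAT over BAT, edgeR adjusted p = 0.000123) and higher in iWAT without it (log2 0.32 ± 0.13, edgeR adjusted p = 0.0291).

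Aqp9 (chromosome 9, 70958466 to 71016489, minus strand, 13 exons), the glycerol channel best known from liver, was detected at low levels. Its levels were 0.106 to 0.461 RPKM in iWAT (12 to 58 reads), 0.200 to 0.683 RPKM in eWAT (22 to 84 reads) and 0.00988 to 0.0477 RPKM in BAT (1 to 7 reads). Every white library exceeded every BAT library, while the white depots overlapped. Aqp9 was 6.35-fold higher in iWAT than in BAT (log2 2.67 ± 0.42, edgeR adjusted p = 2.84e-05) and 10.4-fold higher in eWAT than in BAT (log2 3.37 ± 0.38, edgeR adjusted p = 7.72e-07). With 20 reads in all in BAT, Aqp9 reached the filter of 10 reads on average only through the white libraries. Both folds rest on a BAT level near the floor. The white depots did not pass the test (log2 -0.68 for iWAT over eWAT, 95% CI -1.43 to 0.07, edgeR adjusted p = 0.0974). Macrophage markers had the same order, eWAT above iWAT above BAT, and their part in the Aqp9 levels was not tested.

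Aqp3 (chromosome 4, 41039755 to 41045216, minus strand, 6 exons), a glycerol channel of skin and kidney epithelia, was at the floor. It had 0 to 2 reads in each white library and 0 or 1 in each BAT library, 6, 7 and 3 reads in all in iWAT, eWAT and BAT. A count of 3 reads, the limit a count of 0 allows, corresponds to at most 0.0715 RPKM in the shallowest BAT library, and no fold change was computed. Among the called differences, no library of either tissue overlapped after scaling for 4 of 7 genes in iWAT against eWAT and for 6 of 7 in each comparison with BAT. Over all genes tested this held for 43.9% (iWAT and eWAT), 56.5% (iWAT and BAT) and 66.3% (eWAT and BAT). The 6 against BAT include Aqp9, which entered the test only through its white libraries.

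**Figure D2:**
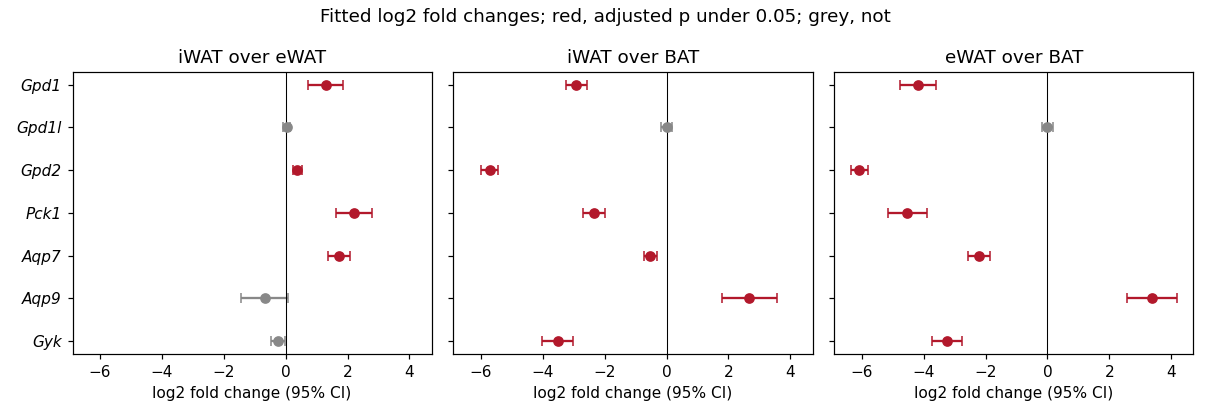
Fitted log2 fold change (x axis) with its 95% confidence interval for the 7 tested genes in each of the 3 comparisons, in red where the edgeR adjusted p was under 0.05. Gpd2 lies farthest from 0 against BAT, Gpd1l lies at 0 in all 3 panels, and Aqp9 alone is higher in white adipocytes than in BAT.

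Within the white depots, lane 1 held 2 iWAT and 4 eWAT libraries and lane 2 held 4 iWAT and 2 eWAT libraries, which allowed each comparison to be repeated within a lane. Pck1 differed by 2.28 in lane 1 and 2.34 in lane 2 on the log2 scale, Aqp7 by 1.66 and 1.85, and Gpd2 by 0.40 and 0.53, all past the threshold. Gpd1 differed by 1.10 in lane 1 (edgeR adjusted p = 0.0782) and by 1.61 in lane 2 (edgeR adjusted p = 0.00462). Aqp9 differed by -0.20 in lane 1 (edgeR adjusted p = 0.799) and by -1.03 in lane 2 (edgeR adjusted p = 0.0465).

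The low Gpd1, Pck1 and Aqp7 of eWAT replicates 3 and 1 went with low adipocyte markers. The summed markers were lowest in eWAT replicate 3, at 2643 RPKM, and the adipokine Adipoq was at 150 to 579 RPKM in eWAT against 840 to 1297 RPKM in iWAT. Summed macrophage markers were highest in eWAT replicate 3, at 1422 RPKM, and their part in these results was not tested. These 2 libraries were left out in a fit chosen after the data were seen. Without eWAT replicates 1 and 3, the log2 differences were 0.99 for Gpd1, 1.91 for Pck1, 1.49 for Aqp7 and 0.32 for Gpd2, all past the threshold. Gyk then also passed, higher in eWAT (log2 -0.31 for iWAT over eWAT, edgeR adjusted p = 0.0365). All adipocyte markers, 8 of 8, were higher in iWAT than in eWAT, with a median log2 difference of 1.50 against 0.001 over all genes.

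The genes were therefore also set against the mean log2 level of the 8 adipocyte markers within each library. This setting was also chosen after the data were seen. Relative to the markers, Pck1 remained higher in iWAT, by 0.63 ± 0.13 on the log2 scale (1.55-fold), and its libraries did not overlap. Aqp7 did not differ past the threshold (0.09 ± 0.17, exact permutation p = 0.632). Gpd1 was lower in iWAT than in eWAT, by -0.29 ± 0.07, and so were Gpd2 (-1.30 ± 0.30), Gpd1l (-1.65 ± 0.34), Gyk (-1.91 ± 0.28) and Aqp9 (-2.19 ± 0.43). For these 6 genes other than Aqp7 the exact permutation p was 0.00216, the smallest that 6 against 6 allows, and 0.00253 after Benjamini-Hochberg adjustment over 7 tests. All 7 tests subtract the same 8 markers, which were themselves higher in iWAT (median log2 difference 1.50). A gene equal between depots when scaled over all genes therefore comes out lower in iWAT. Gpd1l, at 0.03 on that scale (edgeR adjusted p = 0.631), did so. These p-values compare each gene with the markers and do not show a depot difference of the gene alone. The direction for Gpd1, Gpd2 and Gpd1l between white depots thus depended on the scale used.

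**Figure D3:**
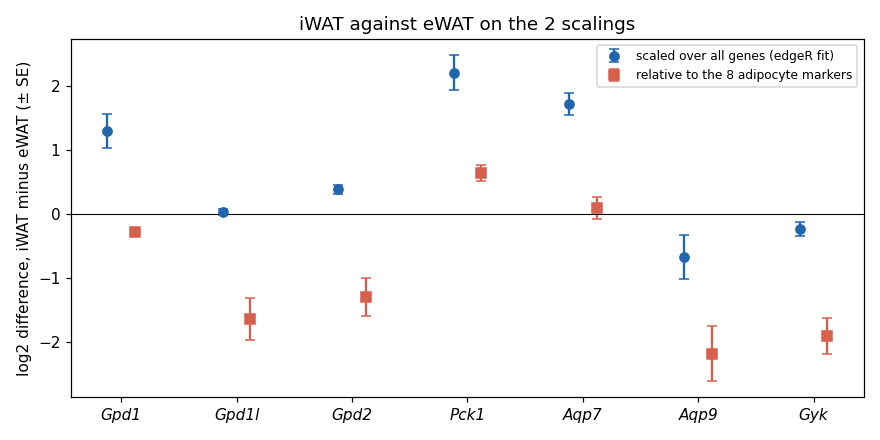
Difference between iWAT and eWAT on the log2 scale (y axis, ± SE) for the 7 tested genes, from the fit scaled over all genes (circles) and relative to the 8 adipocyte markers (squares). Pck1 is above 0 on both scales, while Gpd1 and Gpd2 are above 0 on one and below it on the other.

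Ratios between genes within a library do not depend on scaling between libraries, apart from the constant added to each level before the test. The part of the lower adipocyte markers and higher macrophage markers of eWAT in these ratios was not tested. Of 6 ratios chosen, 5 were computed in the 3 pairs of tissues (15 tests), since Aqp3 was at the floor. They were tested by exact permutation of log2(RPKM + 0.1) ratios, two-sided. Where the smallest possible p of 0.00216 was reached, the adjusted p was 0.0025.

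The ratio of Gpd1 to Gpd2, the cytosolic to the mitochondrial arm of the glycerol phosphate shuttle, was 89.3 to 141 in iWAT (median 114), 25.5 to 79.6 in eWAT (median 66.0) and 12.6 to 20.4 in BAT (median 17.1). No tissue overlapped another. The ratio was 6.64-fold higher in iWAT than in BAT (log2 difference 2.73 ± 0.14 SE), 3.29-fold higher in eWAT than in BAT (1.72 ± 0.27) and 2.02-fold higher in iWAT than in eWAT (1.01 ± 0.27), each with exact permutation p = 0.00216. The ratio of Gpd1l to Gpd1 was 0.0181 to 0.0312 in iWAT, 0.0409 to 0.141 in eWAT and 0.00248 to 0.00439 in BAT. Gpd1l was thus a small part of the cytosolic dehydrogenase transcripts in every library, and the share differed in each pair of tissues (exact permutation p = 0.00216), by 19.6-fold between eWAT and BAT.

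Glycerol kinase relative to Gpd1 was 0.00585 to 0.00840 in iWAT, 0.0153 to 0.0450 in eWAT and 0.00525 to 0.0184 in BAT. The eWAT ratio was 3.08-fold above iWAT (exact permutation p = 0.00216) and 2.24-fold above BAT (exact permutation p = 0.00866, adjusted 0.00928). The ratios of iWAT and BAT overlapped (log2 difference -0.46 ± 0.31, exact permutation p = 0.162). Without BAT replicate 18, this difference was -0.66 with an adjusted exact permutation p of 0.0476. The ratio of Pck1 to glycerol kinase was 41.4 to 67.2 in iWAT (median 53.1), 18.6 to 35.5 in BAT (median 24.9) and 4.20 to 12.8 in eWAT (median 9.97). No tissue overlapped another, and iWAT exceeded eWAT by 5.84-fold, iWAT exceeded BAT by 2.07-fold and BAT exceeded eWAT by 2.82-fold (exact permutation p = 0.00216 each).

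For the glycerol channels, the ratio of Aqp9 to Aqp7 had a median of 0.00516 in iWAT, 0.0341 in eWAT and 0.000598 in BAT. On the log2(RPKM + 0.1) scale, eWAT exceeded iWAT by 4.84-fold and BAT by 12.1-fold, and iWAT exceeded BAT by 2.50-fold (exact permutation p = 0.00216 each). The sizes against BAT depended on the pseudocount, because Aqp9 in BAT lay below 0.1 RPKM in every library. On the log2 scale the difference between iWAT and BAT was 1.32 as given, 2.79 with a pseudocount of 0.01 (adjusted exact permutation p = 0.00271) and 0.18 with a pseudocount of 1 (adjusted exact permutation p = 0.253). Between eWAT and BAT it was 3.59, 5.24 and 2.02, and between iWAT and eWAT -2.27, -2.46 and -1.83.

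**Figure D4:**
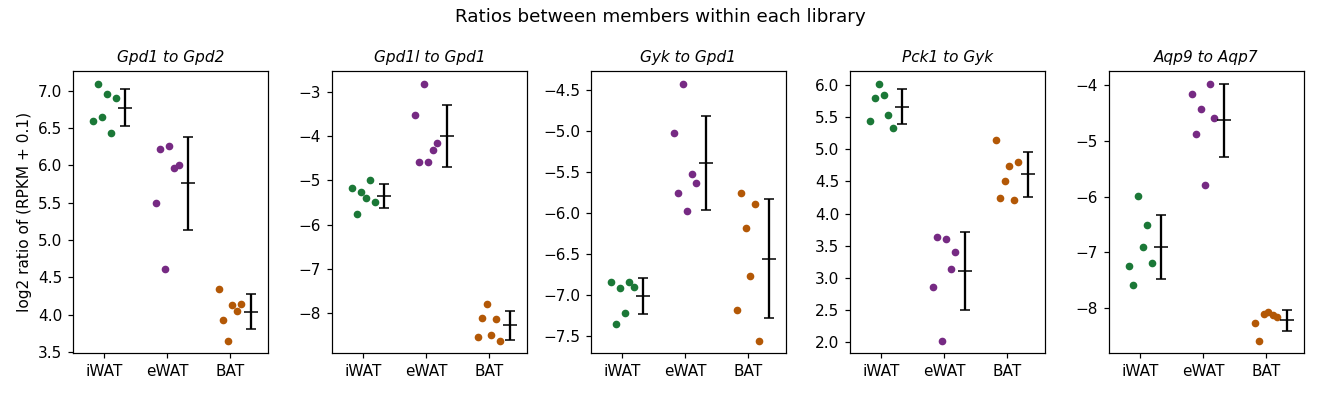
The log2 ratio of (RPKM + 0.1) for 5 pairs of genes (y axis, a scale for each panel) in each library by tissue, with mean ± SD (n = 6). Gpd1 to Gpd2 falls from iWAT to eWAT to BAT, Pck1 to Gyk is lowest in eWAT, and Gyk to Gpd1 overlaps between iWAT and BAT.

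The enzymes around these genes were described by lists, whose counts stand beside the shares of all genes called. Between the white depots, 34.1% of all genes were higher in iWAT and 34.5% in eWAT. All 8 adipocyte markers were higher in iWAT (median 1.50), and all 8 macrophage markers were higher in eWAT (median -2.25 for iWAT over eWAT). The part of either in the list differences between depots was not tested. Of 8 lipolysis genes, 7 were higher in iWAT than in eWAT (median log2 difference 1.45, against 0.001 over all genes), and Plin1 and Lipe are in both this list and the adipocyte markers. They included G0s2, an inhibitor of adipose triglyceride lipase (3.28-fold), the lipid droplet coat Plin1 (3.09-fold) and Gpihbp1, which holds lipoprotein lipase on capillary endothelium (4.40-fold). Endothelial markers were also higher in iWAT, 8 of 8, and their part in the Gpihbp1 difference was not tested. Against BAT, 3 lipolysis genes were higher in iWAT and 3 in BAT (median 0.28), where 38.1% and 37.2% of all genes were. Pnpla2, the adipose triglyceride lipase, was 1.80-fold higher in BAT, and the lipoprotein lipase gene Lpl was 2.96-fold higher in iWAT (edgeR adjusted p = 3.14e-08). In eWAT against BAT, 6 of 8 were higher in BAT (median -1.52), where 41.4% of all genes were, with G0s2 7.24-fold, Pnpla2 4.21-fold and the hormone-sensitive lipase gene Lipe 3.65-fold higher.

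Of 12 genes that esterify glycerol-3-phosphate and complete triglyceride synthesis, 11 were tested. In iWAT against eWAT, 8 were higher in iWAT and 2 in eWAT (median 0.98, below the 1.50 of the adipocyte markers), among them the phosphatidate phosphatase Lpin3 (3.21-fold) and the acyltransferases Agpat9 (2.75-fold) and Agpat2 (2.71-fold), higher in iWAT. In iWAT against BAT, 7 were higher in BAT and 1 in iWAT (median -1.02), where 37.2% and 38.1% of all genes were. The mitochondrial glycerol-3-phosphate acyltransferase gene Gpam, which catalyses the entry step, was at 9.16 to 13.1 RPKM in iWAT, 3.71 to 11.1 RPKM in eWAT and 27.2 to 51.7 RPKM in BAT. It was 5.18-fold higher in BAT than in iWAT and 7.29-fold higher than in eWAT (edgeR adjusted p = 9.59e-10 and 6.02e-08), and between white depots it missed the threshold (log2 0.51, edgeR adjusted p = 0.0801). In eWAT against BAT, 9 were higher in BAT and 1 in eWAT (median -1.54), where 41.4% and 41.1% of all genes were.

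Of 9 genes that carry glucose to dihydroxyacetone phosphate, 7 were higher in BAT than in iWAT and 8 higher than in eWAT (medians -1.92 and -1.96), where 37.2% and 41.4% of all genes were higher in BAT. The insulin-responsive glucose transporter Slc2a4 was at 12.2 to 23.3 RPKM in iWAT, 1.56 to 8.25 RPKM in eWAT and 43.7 to 67.2 RPKM in BAT. It was 3.79-fold higher in iWAT than in eWAT (edgeR adjusted p = 0.000134), 4.57-fold higher in BAT than in iWAT and 17.1-fold higher in BAT than in eWAT. Liver-type phosphofructokinase Pfkl was 10.2-fold and 17.9-fold higher in BAT than in iWAT and eWAT. Between the white depots 4 genes were higher in iWAT and 3 in eWAT (median 0.28), with the aldolase Aldoc 5.01-fold higher in eWAT at 0.497 to 1.18 RPKM.

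Of 9 genes that supply glyceroneogenesis, 5 were higher in iWAT and 3 in eWAT (median 0.60), 8 called of 9 where 68.6% of all genes were called. The largest folds were those of Got1 and Got2, 2.74-fold and 2.18-fold higher in eWAT, and of Slc25a10, 2.45-fold higher in iWAT. Pcx, which makes oxaloacetate from pyruvate, was higher in iWAT (log2 1.10 ± 0.29, edgeR adjusted p = 0.00431). The mitochondrial carboxykinase gene Pck2 missed the threshold (log2 -0.19, edgeR adjusted p = 0.17). Against BAT, 5 were higher in BAT and 2 in iWAT (median -0.84), where 37.2% and 38.1% of all genes were. For eWAT, 5 were higher in BAT and 4 in eWAT (median -0.82), where 41.4% and 41.1% of all genes were. Pdk4, which inhibits pyruvate dehydrogenase, was 13.9-fold higher in BAT than in iWAT and 24.5-fold higher than in eWAT. The dicarboxylate carrier Slc25a10 went the other way, 18.1-fold higher in iWAT and 7.47-fold higher in eWAT than in BAT.

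The malate-aspartate shuttle also moves electrons from cytosolic NADH into mitochondria. In iWAT against eWAT, 5 of its 7 genes were higher in eWAT and 2 in iWAT (median -1.01), where 34.5% of all genes were higher in eWAT, as were the 8 macrophage markers. The aspartate-glutamate carrier Slc25a13 was at 1.38 to 2.82 RPKM in iWAT, 7.77 to 12.1 RPKM in eWAT and 0.0370 to 0.117 RPKM in BAT. It was 4.68-fold higher in eWAT than in iWAT, and higher than in BAT by 17.7-fold in iWAT and 84.3-fold in eWAT. Slc25a13 had only 3 to 16 reads per BAT library, so the sizes of the folds against BAT are uncertain. The aminotransferase genes Got1 and Got2 were 2.74-fold and 2.18-fold higher in eWAT than in iWAT. Against BAT, 4 of 7 were higher in BAT for iWAT (median -0.84) and 3 for eWAT (median 0.56). Over all genes, 37.2% and 41.4% were higher in BAT. Mdh2, the mitochondrial malate dehydrogenase, was 4.90-fold and 7.31-fold higher in BAT than in iWAT and eWAT.

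**Figure D5:**
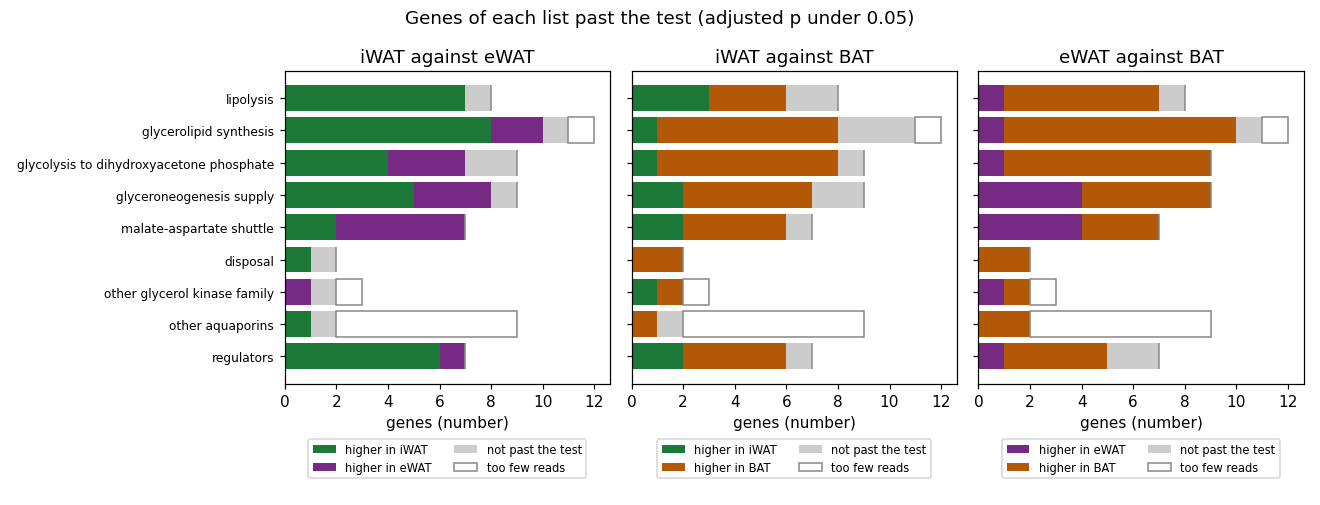
Number of genes (x axis) of each list that were higher in either tissue, that did not pass the test or that had too few reads to be tested, for the 3 comparisons. Lipolysis genes are mostly higher in iWAT than in eWAT, and glycolysis genes are mostly higher in BAT than in white adipocytes.

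Of the glycerol disposal enzymes, the phosphatase Pgp, which can act on glycerol-3-phosphate, was 1.21-fold higher in iWAT than in eWAT and 2.18-fold and 2.59-fold higher in BAT than in iWAT and eWAT. Dak, which phosphorylates dihydroxyacetone, was 1.53-fold and 1.45-fold higher in BAT (disposal medians 0.11, -0.87 and -0.95 for iWAT over eWAT, iWAT over BAT and eWAT over BAT). In the glycerol kinase family, Gk2 was 10.1-fold higher in BAT than in iWAT, 6.61-fold higher in BAT than in eWAT and 1.51-fold higher in eWAT than in iWAT, at 0.503 to 1.96 RPKM in BAT. These folds rest on few white reads, 7 to 12 per iWAT library and 12 to 17 per eWAT library. Gk2 is a close copy of Gyk, so reads could be split between them and its values are uncertain. Gk5 was 1.31-fold higher in iWAT and 1.24-fold higher in eWAT than in BAT, and Gykl1 had at most 5 reads in any library (family medians -0.25, -1.48 and -1.21).

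Of 9 other aquaporins, only Aqp1 and Aqp11 had enough reads. Aqp1, a water channel known from capillary endothelium, was at 116 to 402 RPKM in iWAT, 49.8 to 136 RPKM in eWAT and 86.9 to 159 RPKM in BAT, above Aqp7 in every tissue. It was 2.64-fold higher in iWAT than in eWAT and 2.00-fold higher in BAT than in eWAT, and iWAT against BAT missed the threshold (log2 0.37, edgeR adjusted p = 0.16). The endothelial cadherin Cdh5 was at 62.5 to 177 RPKM in iWAT, 21.1 to 44.4 RPKM in eWAT and 34.5 to 54.7 RPKM in BAT, and the part of endothelial cells in the Aqp1 levels was not tested. Aqp11 was 1.30-fold and 1.51-fold higher in BAT than in iWAT and eWAT (aquaporin medians 0.82, -0.001 and -0.80).

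Among 7 regulators, 6 were higher in iWAT and 1 in eWAT (median 0.86, below the 1.50 of the adipocyte markers), where 34.1% of all genes were higher in iWAT. Pparg, the nuclear receptor that drives adipocyte genes, was at 79.3 to 96.7 RPKM in iWAT, 28.5 to 48.2 RPKM in eWAT and 79.0 to 106 RPKM in BAT, and was 2.18-fold higher in iWAT than in eWAT (edgeR adjusted p = 6.65e-06). Ppara, the nuclear receptor of fatty acid oxidation, was at 0.855 to 1.31 RPKM in iWAT, 0.120 to 0.537 RPKM in eWAT and 34.3 to 58.6 RPKM in BAT. It was 56.9-fold and 161-fold higher in BAT than in iWAT and eWAT, and its coactivator Ppargc1a was 12.3-fold and 39.4-fold higher. Against BAT, 4 regulators were higher in BAT and 2 in iWAT (median -0.55), where 37.2% and 38.1% of all genes were. For eWAT, 4 were higher in BAT and 1 in eWAT (median -0.89), where 41.4% and 41.1% of all genes were.

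The genes whose levels most resembled each gene were ranked by Pearson's r of log2(RPKM + 0.1) over the 18 libraries, among 15540 symbols with a mean of at least 1 RPKM in a tissue. These are descriptions only, since the 18 libraries form 3 tissues and share their depth and composition. The genes most like Gpd1 included Mecr (r = 0.995) and Eci1 (0.994), of which Mecr serves mitochondrial fatty acid synthesis and Eci1 mitochondrial fatty acid oxidation. Gpd2 was most like BC090627 (0.998), Chkb (0.997) and Me3 (0.997). Pck1 was most like Nol3 (0.990), Popdc2 (0.990) and Pccb (0.987), a subunit of propionyl-CoA carboxylase. Aqp7 was most like Pcsk6 (0.988), Lmtk2 (0.983) and Pink1 (0.983). Gyk was most like Lrpprc (0.986), Slmo2 (0.974) and A530050N04Rik (0.973), and Gpd1l was most like Eif4g2, Snx13 and Galnt1 (0.979, 0.979 and 0.978). Aqp3 and Aqp9 were below 1 RPKM in every tissue and were not ranked.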

How the data were processed

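The authors deposited 1 table per library, with a whole read count and an RPKM value for every transcript of mm9. The submitters' processing notes name cutadapt 1.16 and HISAT2 2.1.0. The counting program, annotation and strand setting are not given in the sources used here. Each file holds 53445 rows. A symbol with several rows was represented by that of highest average RPKM, and each of the 8 genes has 1 row. The 8 genes, the lists and the markers were chosen with earlier results of these data known. All 8 genes are named, with up to 3 genes past the threshold per list and comparison (largest fold) and the 3 most alike genes, of which 1 is not reported here.

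Counts were compared with edgeR 4.0.16 in R 4.3.3 (glmQLFit, glmQLFTest, TMM, two-sided) on the 12 libraries of each pair, for genes averaging 10 reads or more. Benjamini-Hochberg adjustment was over all genes, with a threshold of 0.05. The SE is the log2 fold change over the root of its F statistic. The alternatives were DESeq2 1.42.0, a replicate block, lane, no scaling, no filter, rows summed per symbol, 1 fit of all 18 libraries, a log2 minimum of 1, other pseudocounts and each library left out. Leaving out eWAT replicates 1 and 3 and setting genes against adipocyte markers were added after the data were seen. Exact tests used scipy 1.17.1. The labels do not say that libraries come from separate mice, so p-values measure the spread between libraries. Counting limits cover counting error only.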

Additional observations from a re-analysis of the deposited data

How the results depend on the processing

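The number of genes past the threshold stayed within 1.5 times under every alternative of the count fits, at 3 to 5 for iWAT against eWAT, 5 to 7 for iWAT against BAT and 6 or 7 for eWAT against BAT. Leaving out 1 library at a time gave 4 to 5, 6 and 6. These counts leave out the setting relative to the 8 adipocyte markers. There all tested genes but Aqp7 passed for iWAT against eWAT, and of those that passed only Pck1 was higher in iWAT. For each gene, the mean of its tissue was subtracted from the log2 level in each library. These deviations from the tissue mean, not the levels themselves, were correlated between same-numbered libraries. They correlated at -0.25 to 0.43 in iWAT and eWAT (6 pairs) and at -0.14 to 0.10 and -0.05 to 0.05 against BAT (4 pairs each). This cannot decide whether a number marks 1 mouse, because other differences between libraries can hide a shared one. The main fits left the libraries unpaired, and the replicate block left the counts at 4, 6 and 6. With the ratios paired by number, 6 pairs cannot give an adjusted exact p below 0.0938, so these were compared as values only, and none moved by more than the SD between libraries.

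Gpd1l lay so near 0 that its sign turned. For iWAT over BAT it was -0.032 with the replicate block, -0.003 with DESeq2 and -0.046 to 0.069 with 1 library left out. For eWAT over BAT it was 0.021 with DESeq2, 0.10 with no filter and -0.056 to 0.057 with 1 library left out. For iWAT over eWAT it was -0.053 without scaling. The cause of these turns was not tested. For eWAT over BAT without scaling, Gpd1l was at 0.91, not near 0 but near the 0.89 shift of the median gene. Without scaling Aqp7 turned to 0.32 for iWAT over BAT. Relative to the 8 adipocyte markers, Gpd1 (-0.29), Gpd1l (-1.65) and Gpd2 (-1.30) turned for iWAT over eWAT, and Aqp7 lost significance (0.09). Gyk passed for iWAT over eWAT without scaling (-0.32), without eWAT replicates 1 and 3 (-0.31, chosen after the data were seen), without iWAT replicate 16 (-0.32) and without eWAT replicate 3 (-0.28). Aqp9 passed without iWAT replicate 3 (-0.95). The ratio of Aqp9 to Aqp7 for iWAT against BAT was 1.32, fell to 0.18 with a pseudocount of 1 and rose to 2.79 with a pseudocount of 0.01, and for eWAT against BAT it was 3.59, 2.02 and 5.24. The ratio of glycerol kinase to Gpd1 for iWAT against BAT was -0.66 to -0.30 with 1 library left out, and passed without BAT replicate 18.

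Over all genes, 7301 passed for iWAT against eWAT within lane 1, against 13454 with all 12 libraries. The planned ratio of Aqp3 to Aqp7 was not run. Read depth limits Aqp3 (0 to 2 reads) and Aqp9 in BAT (1 to 7 reads). It also limits Slc25a13 in BAT (3 to 16 reads) and Gk2 in iWAT (7 to 12 reads) and eWAT (12 to 17 reads).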
